A study of Mus musculus with 10 samples.

Results

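The melanosome and melanin synthesis genes described here are Pmel, Tyr, Tyrp1, Dct, Mlana, Oca2, Slc45a2, Slc24a5, Gpr143 and Trpm1, 10 of 29890 gene symbols in the expression table, taken as a named list with earlier results of these data known. Bulk RNA was sequenced from 10 subcutaneous tumors of B2905-M4, a mouse melanoma line, grown in female C57BL/6 mice that were 7 to 8 weeks old at injection. The cells of 5 tumors overexpressed Adamts7, a secreted metalloproteinase, and those of the other 5 tumors carried a vector control, and neither group received immunotherapy. Harvest was on day 35 for 2 Adamts7 tumors, on day 45 for 3 tumors of each group and on day 50 for 2 vector tumors, with no day tied to a given tumor. The sources used here do not say whether the engineered lines were clones or pools, or which promoter drove Adamts7.

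A melanosome is an organelle related to the lysosome in which pigment cells build melanin. Pmel, which lines the early organelle with amyloid fibrils, is the scaffold; tyrosinase (Tyr), Tyrp1 and dopachrome tautomerase (Dct) are the enzymes that turn tyrosine into melanin; and Oca2, Slc45a2 and Slc24a5 are membrane transporters that set the pH and ion content of the organelle. Mlana is a small membrane protein that associates with Pmel, Gpr143 is a receptor inside the cell that governs melanosome size, and Trpm1 is a cation channel of melanocytes. The transcription factor MITF binds the sequence CATGTG in promoters of many of these genes, and several of the proteins are known targets of T cells in melanoma.

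The promoters of the 3 enzyme genes and of Slc24a5 are shown because the enzymes carry out the synthesis, and because Slc24a5 had the highest level of the 10 genes in vector tumor 3, where their sum was lowest. RefSeq sequences on build GRCm38.p6 were found for 6 of the 10 genes (Tyr, Tyrp1, Dct, Oca2, Slc24a5 and Trpm1). The tumor data were aligned to another build, so the positions serve the sequences alone. Each run holds the 250 bases before the annotated start, 5′ to 3′ on the strand of the gene, with CATGTG or its reverse complement CACATG in capitals. Tyr lies on the minus strand at chr7:87493513-87493762, Tyrp1 on the plus strand at chr4:80833963-80834212, Dct on the minus strand at chr14:118052247-118052496 and Slc24a5 on the plus strand at chr2:125067877-125068126.
Tyr: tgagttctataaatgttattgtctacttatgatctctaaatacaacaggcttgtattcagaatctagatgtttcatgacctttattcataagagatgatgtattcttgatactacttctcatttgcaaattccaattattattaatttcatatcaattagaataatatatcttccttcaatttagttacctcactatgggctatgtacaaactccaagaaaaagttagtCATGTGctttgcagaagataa
Tyrp1: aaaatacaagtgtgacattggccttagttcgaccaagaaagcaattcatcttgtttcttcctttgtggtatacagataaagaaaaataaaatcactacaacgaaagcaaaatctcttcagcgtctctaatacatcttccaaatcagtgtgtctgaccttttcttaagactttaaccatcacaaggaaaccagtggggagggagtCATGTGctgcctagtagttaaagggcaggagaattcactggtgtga
Dct: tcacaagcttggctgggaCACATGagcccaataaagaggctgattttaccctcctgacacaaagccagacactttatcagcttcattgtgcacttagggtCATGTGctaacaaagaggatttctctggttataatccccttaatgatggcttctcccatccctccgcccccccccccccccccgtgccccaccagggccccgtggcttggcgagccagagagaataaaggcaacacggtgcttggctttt
Slc24a5: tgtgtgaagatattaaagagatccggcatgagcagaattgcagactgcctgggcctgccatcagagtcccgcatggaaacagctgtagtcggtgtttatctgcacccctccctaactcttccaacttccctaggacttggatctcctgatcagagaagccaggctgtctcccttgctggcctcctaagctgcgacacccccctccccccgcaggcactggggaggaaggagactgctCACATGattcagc
CATGTG, searched on both strands, was present in 250 bases before a start of all 6 genes, and in 12.3% of the 32851 promoters in the RefSeq table. Its first base lay 21 bases before the start in Tyr, 46 in Tyrp1 and 141 in Trpm1. In Dct it lay 150 bases before the start, with CACATG at 232. CACATG lay at 13 in Slc24a5 and at 186 in Oca2. The longer form TCATGTG, which contains CATGTG, was found in 5 of the 6 genes, all but Oca2, and in 3.25% of all promoters. CACGTG, a related sequence, was found before a second annotated start of Trpm1 and in 6.02% of promoters. These matches describe letters and not binding.

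Expression is given as TPM, a transcript abundance scaled per gene length and per library, a scale on which sequencing depth cannot be read, and depth is therefore unknown. Each tumor had 21515 to 23859 genes above 0. A limma test on log2(TPM + 1) covered the 15276 genes that averaged 1 TPM or more. Adamts7 itself was at 71.2 ± 30.8 TPM in Adamts7 tumors and 15.6 ± 11.3 TPM in vector tumors (SD, n = 5 each), but the tumor labelled Adamts7 5, at 18.2 TPM, had less of it than vector tumors 3 and 5, at 28.3 and 27.6 TPM. Vector tumors 3 and 5 also stood apart from the other 8 tumors on the first principal component of 15108 genes, with every gene of the lists used here left out; it held 49.0% of the variance and placed them at 99.5 and 85.8, against -49.3 to -5.89 for the others. The log2 fold changes of the 10 genes are therefore given with and without these tumors. So are the medians of the other lists, except keratinocyte, muscle and adipocyte markers. Sox10, a melanocyte lineage factor, was present in all 10 tumors, at 494 to 725 TPM in Adamts7 tumors, against 269 to 742 TPM in vector tumors. Lineage genes differed in this. In vector tumor 3, Sox10 stood at 38.9% of the median of vector tumors 1, 2 and 4, Mitf at 7.78% and Mc1r at 1.28%. The median over 11 lineage regulators was 53.5%, with a range of 1.28% to 1343%. In bulk tissue fewer pigment cells and less RNA per pigment cell cannot be told apart.

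The 10 genes together were abundant in every Adamts7 tumor and ranged from abundant to nearly undetected among vector tumors. Their summed level was 19215, 14048, 18480, 23455 and 12337 TPM in Adamts7 tumors 1 to 5. In vector tumors 1 to 5 it was 13018, 16710, 36.1, 7918 and 1697 TPM. This was 1.24% to 2.36% of all TPM in Adamts7 tumors, against 0.00361% to 1.68% in vector tumors, so the groups overlapped. In all 10 genes vector tumor 3 was lowest and vector tumor 5 second lowest of the 10 tumors.

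**Figure D1:**
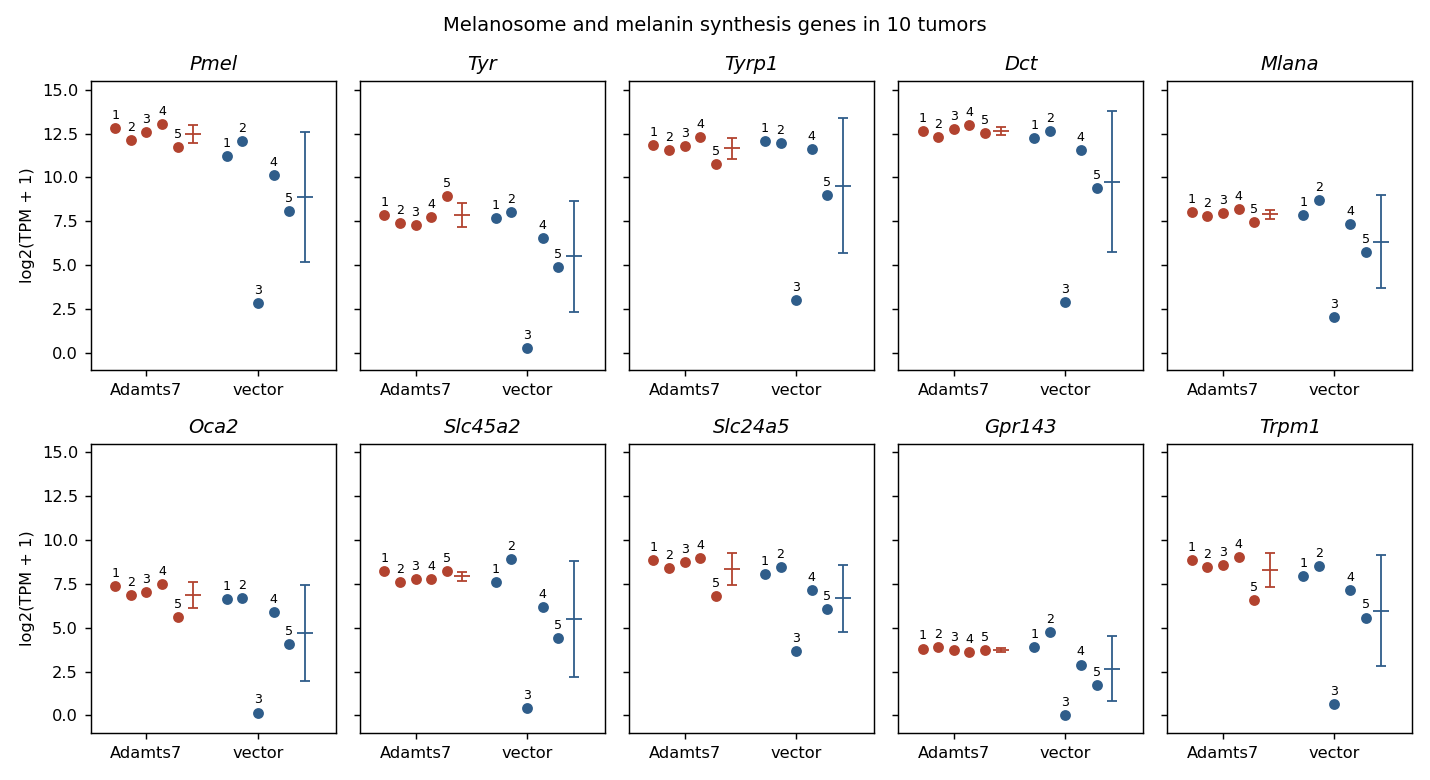
Level of each of the 10 genes, as log2(TPM + 1), in the 5 Adamts7 tumors on the left (red) and the 5 vector tumors on the right (blue) of each panel; numbers name the tumors and the bars beside the points show mean and SD. Vector tumor 3 is the lowest point in every panel, and the 2 groups overlap in every panel.

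None of the 10 genes passed the test between the groups, although every log2 fold change was positive, as were 39.8% of all genes tested. The log2 fold changes ran from 1.08 for Gpr143 to 3.59 for Pmel with a median of 2.26, against a median of -0.10 over all genes tested. All 10 were at least 1, as were 1.47% of all genes tested. The limma adjusted p-values, over all genes, lay between 0.211 and 0.422, and 0 of 10 were called higher at 0.05, as were 0.0262% of genes (4 of 15276). Over both directions 0.223% of genes were called, of which 30 fell; these 34 genes became 657 without the tumor labelled Adamts7 5 and 6 to 47 without any other single tumor, with 0 of the 10 genes among them. Under quantile normalization 10 genes were called higher and 20 lower, and under median-of-ratios scaling 8 and 21; these scalings moved the median of all genes to 0.04 and 0.01. At an unadjusted p under 0.05, limma placed 1 of 10 higher, Pmel, and 4.86% of all genes, or 20.2% of genes in either direction. In the authors' deposited table, from DESeq2, all 10 log2 fold changes were also positive, with 0 past 0.05 before or after adjustment and adjusted p-values between 0.244 and 0.791; there 2.48% of genes were called higher. The authors' deposited table gave Pmel the largest of these, 1.96 with a standard error of 1.05, and Gpr143 the smallest, 0.44 with a standard error of 0.85. Adamts7 itself, the overexpressed gene, had a log2 fold change of 2.21 and was not called either (limma adjusted p = 0.104). The authors' deposited table gave Adamts7 2.32 (DESeq2 adjusted p = 0.000817). The limma test thus did not call the gene that defines the groups, while the authors' deposited table called it and 0 of the 10 genes. Groups that do not overlap were found in 0 of the 10 genes and in 4.89% of all genes, 1.11% with Adamts7 tumors above.

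The fold changes rested on vector tumors 3 and 5. Without them the median of the 10 was 0.42; Tyrp1, Mlana and Gpr143 then had negative values of -0.22, -0.08 and -0.12, and Pmel kept the largest, 1.31 with a standard error of 0.43. The remaining genes then stood at 0.49 for Dct, 0.42 for Tyr, 0.47 for Oca2, 0.36 for Slc45a2, 0.48 for Slc24a5 and 0.42 for Trpm1. Without vector tumor 3 alone the median of the 10 was 1.02, and with tumors weighted by their quality in limma it was 1.05. Leaving out other single tumors gave medians of 2.09 or more. Because no day is tied to a tumor, the mean difference was also computed for each of the 100 choices of 3 Adamts7 and 3 vector tumors that could be those of day 45. It was positive in all 100 for Pmel (1.01 to 5.80), Dct (0.35 to 4.84), Tyr, Oca2, Slc45a2 and Slc24a5, in 99 for Trpm1, in 93 for Tyrp1 and Mlana and in 90 for Gpr143. These choices share tumors, and only those with vector tumors 1, 2 and 4 leave out both vector tumors 3 and 5. The counts therefore mostly carry the low values of vector tumors 3 and 5. Harvest day and group cannot be told apart for the remaining tumors.

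**Figure D2:**
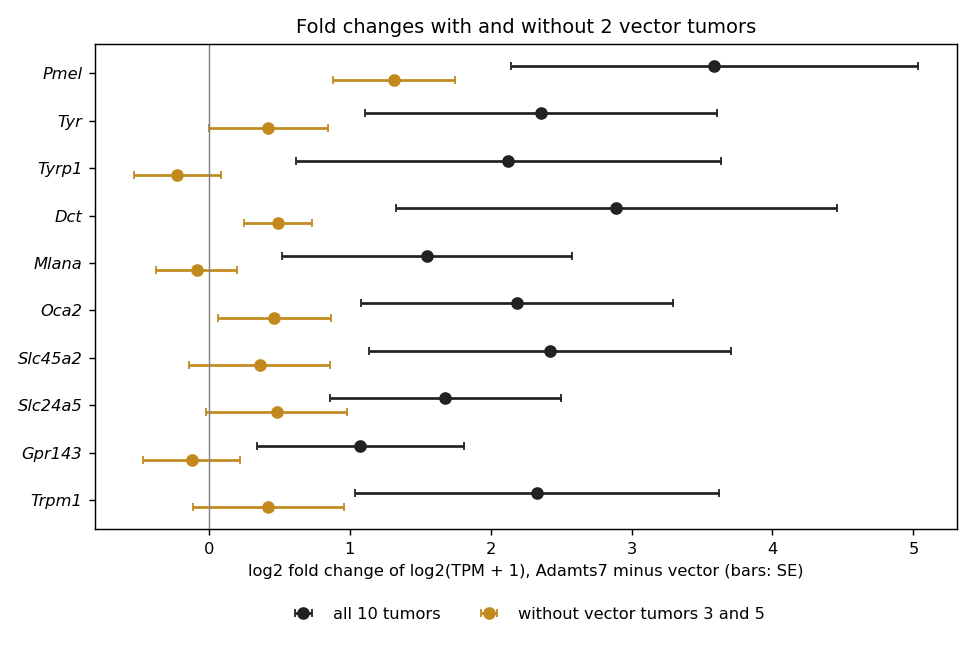
Log2 fold change of each gene on the log2(TPM + 1) scale, Adamts7 minus vector, with standard error bars from limma, for all 10 tumors (black) and without vector tumors 3 and 5 (ochre). All black points lie above 0, while the ochre points lie between -0.22 and 1.31.

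Pmel, the scaffold protein, had the largest log2 fold change of the 10 genes. Its level was 7121, 4524, 6285, 8390 and 3424 TPM in Adamts7 tumors 1 to 5, against 2431, 4380, 6.13, 1107 and 274 TPM in vector tumors 1 to 5. Vector tumor 2 lay above Adamts7 tumor 5, and the other vector tumors lay below all Adamts7 tumors. The means were 5949 ± 1991 TPM in Adamts7 tumors and 1639 ± 1799 TPM in vector tumors (SD, n = 5 each), a 3.63-fold ratio, and the log2 fold change of 3.59 had a standard error of 1.45 (limma adjusted p = 0.211). Exons of Pmel overlap those of Cdk2 and Dgka on the opposite strand in the GENCODE annotation of GRCm38, and the use of strand in counting is unknown, which leaves their counts uncertain; Cdk2 reached at most 287 TPM and Dgka at most 42.2 TPM in any tumor.

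Among the enzymes, Dct had the highest mean TPM in both groups and Tyr the lowest. Dct was at 6456, 5131, 7013, 8031 and 5963 TPM in Adamts7 tumors and at 4959, 6374, 6.49, 3037 and 683 TPM in vector tumors. Its Adamts7 values stayed within a narrow band, with an SD of 0.24 on the log2 scale against 4.03 in vector tumors, and only vector tumor 2 reached into that band. The log2 fold change of Dct was 2.89 with a standard error of 1.56 (limma adjusted p = 0.310).

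Tyrp1, which acts late in the synthesis of black melanin in mice, was at 3748, 2987, 3600, 5085 and 1715 TPM in Adamts7 tumors and at 4375, 3931, 7.16, 3104 and 506 TPM in vector tumors. Vector tumors 1, 2 and 4 thus lay within the Adamts7 range, and the means of 3427 ± 1225 TPM in Adamts7 tumors and 2385 ± 2003 TPM in vector tumors (SD, n = 5 each) differed by a factor of 1.44. Tyr, the enzyme that starts the pathway and limits its rate, was at 230, 167, 155, 217 and 496 TPM in Adamts7 tumors and at 206, 258, 0.21, 93.7 and 29.0 TPM in vector tumors. The highest Tyr value of all 10 tumors was that of the tumor labelled Adamts7 5, which had the lowest Tyrp1 of its group. The log2 fold change was 2.13 with a standard error of 1.51 for Tyrp1 (limma adjusted p = 0.422) and 2.36 with a standard error of 1.25 for Tyr (limma adjusted p = 0.304).

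The transporters differed in how vector tumor 2 compared with the Adamts7 tumors. Slc45a2, which raises melanosome pH, was at 298, 193, 221, 222 and 297 TPM in Adamts7 tumors and at 191, 491, 0.35, 71.0 and 20.0 TPM in vector tumors. Its highest value was in vector tumor 2. Oca2, an anion channel of the melanosome, was at 169, 116, 132, 177 and 48.6 TPM in Adamts7 tumors and at 99.4, 104, 0.12, 59.0 and 15.9 TPM in vector tumors. Vector tumors 1, 2 and 4 exceeded the tumor labelled Adamts7 5 in Oca2, and the other Adamts7 tumors lay above every vector tumor. Slc24a5, a sodium and calcium exchanger, was at 458, 343, 432, 506 and 110 TPM in Adamts7 tumors and at 263, 353, 11.9, 139 and 66.7 TPM in vector tumors. Vector tumors 1, 2 and 4 lay within the Adamts7 range of Slc24a5, whose low end was the tumor labelled Adamts7 5. The log2 fold changes were 2.42 with a standard error of 1.28 for Slc45a2, 2.19 with one of 1.10 for Oca2 and 1.68 with one of 0.82 for Slc24a5, with limma adjusted p-values of 0.304, 0.287 and 0.275 in that order.

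Mlana, Gpr143 and Trpm1 completed the set. Mlana was at 261, 218, 248, 293 and 175 TPM in Adamts7 tumors and at 234, 419, 3.08, 158 and 53.2 TPM in vector tumors, where vector tumor 2 was the highest of all. Gpr143 was the least abundant, at 13.1, 13.7, 12.0, 11.2 and 12.1 TPM in Adamts7 tumors and at 14.0, 26.6, 0, 6.48 and 2.35 TPM in vector tumors. It had the smallest spread of the 10 genes in Adamts7 tumors, with an SD of 0.10 on the log2 scale, and is listed at 0 in vector tumor 3. Trpm1 was at 459, 356, 383, 524 and 95.9 TPM in Adamts7 tumors and at 247, 373, 0.57, 142 and 47.0 TPM in vector tumors. The tumor labelled Adamts7 5 was thus below vector tumors 1, 2 and 4 in Trpm1. The log2 fold changes were 1.55 with a standard error of 1.03 for Mlana, 1.08 with one of 0.73 for Gpr143 and 2.33 with one of 1.29 for Trpm1, with limma adjusted p-values of 0.396, 0.406 and 0.319 in that order.

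Vector tumors 3 and 5 differed from each other in how much of these transcripts they held. Against the median of vector tumors 1, 2 and 4, vector tumor 5 kept between 10.5% (Slc45a2) and 25.3% (Slc24a5) of each gene. Vector tumor 3 kept between 0.102% (Tyr) and 0.252% (Pmel) of 7 genes, 1.32% of Mlana and 4.54% of Slc24a5, with Gpr143 listed at 0. All 10 genes were below 10% in vector tumor 3, as were 1.76% of the 15022 tested genes for which this share was taken. Tyr was 138 times and Oca2 132 times higher in vector tumor 5 than in vector tumor 3, against 5.58 times for Slc24a5. Exons of Slc24a5 overlap those of Myef2 on the opposite strand, and Myef2 was at 46.4 TPM in vector tumor 3 and between 43.3 and 75.8 TPM in all tumors; whether reads of Myef2 were counted to Slc24a5 was not tested. With such low TPM and unknown depth, the differences among the lowest values are uncertain.

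The median levels of the other gene lists lay nearer those of vector tumors 1, 2 and 4, although single genes in some lists were low. In vector tumors 3 and 5 the median share kept was 0.183% and 15.0% for the 10 genes and 53.5% and 49.7% for lineage regulators. It was 79.6% and 78.6% for transport genes, 54.1% and 48.9% for other MITF targets and 81.3% and 80.2% for lysosomal genes. Over the 15022 genes it was 101% and 99.3%. Below 10% in vector tumor 3 were 2 of 11 regulators, 2 of 27 transport genes, 2 of 11 MITF targets and 0 of 16 lysosomal genes. The share was 1.76% over the 15022 genes. The regulators were Mc1r (1.28%) and Mitf (7.78%), and the transport genes were Rab38 (3.14%) and Gpnmb (4.59%). The MITF targets were Met (6.54%) and Ppargc1a (6.62%). Of 11 lineage transcription factor and receptor genes tested, 7 had positive log2 fold changes and 4 negative ones, and 0 were called (limma); the median was 0.16, and -0.07 without vector tumors 3 and 5. Mitf stood between 118 and 238 TPM in Adamts7 tumors and at 285, 266, 20.7, 185 and 53.0 TPM in vector tumors 1 to 5, so that vector tumors 3 and 5 kept 7.78% and 20.0% of the median of the other 3. Sox10 kept 38.9% and 45.0% there, and Pax3, a partner of Sox10, 37.2% and 47.1%. Tfap2a and Ednrb kept 51.7% and 53.5% in vector tumor 3. Other regulators stood above the median of the other 3 in that tumor. They were Tfec at 1343% of a median of 0.92 TPM, Kit at 232%, Snai2 at 193%, Lef1 at 137% and Zeb2 at 104%. Ednrb, the endothelin receptor of melanocyte precursors, had a log2 fold change of 0.65, or 0.37 without vector tumors 3 and 5. Snai2, a neural crest factor, was at 4.86 to 6.71 TPM in Adamts7 tumors, against 8.28 to 18.0 TPM in vector tumors, groups that do not overlap (log2 fold change -0.98, limma adjusted p = 0.084; -0.67 without these tumors). Lef1, a transcription factor of Wnt signalling, had a log2 fold change of -0.86 (limma adjusted p = 0.149).

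**Figure D3:**
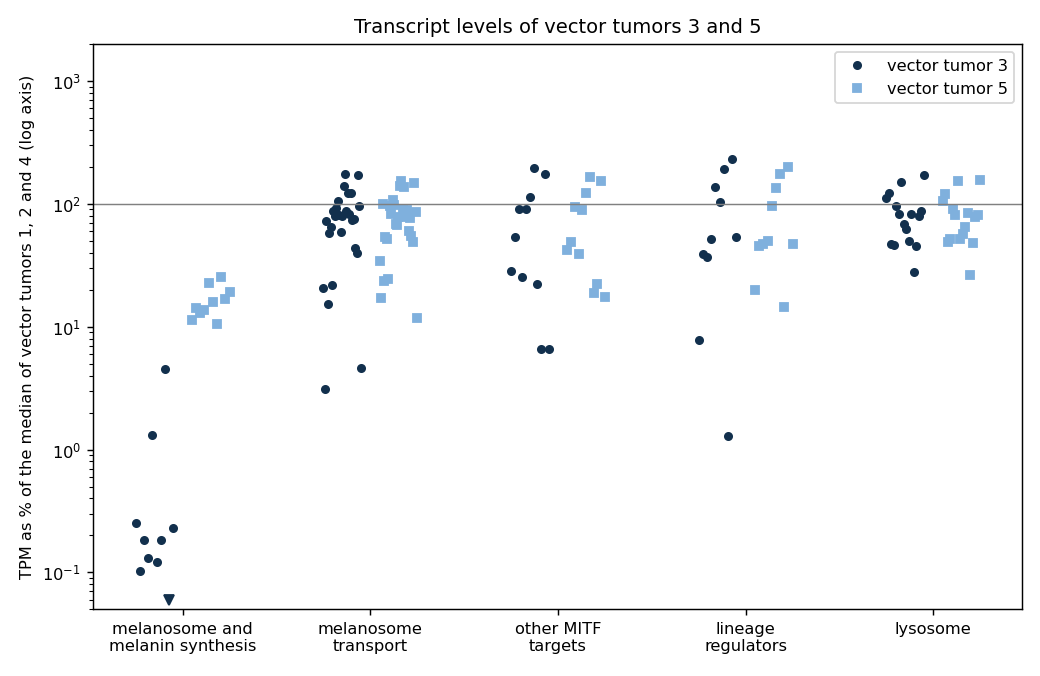
Level of single genes in vector tumor 3 (dark circles) and vector tumor 5 (light squares) as a percentage of the median of vector tumors 1, 2 and 4, on a log axis, for 5 gene lists and genes whose median is at least 1 TPM; the triangle marks Gpr143, listed at 0. The melanosome genes lie at or below 4.54% in vector tumor 3, while lysosomal genes lie there between 27.6% and 173%.

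Of 27 tested genes that build and move the melanosome, 20 had positive log2 fold changes and 7 negative ones, and 0 were called (limma); the median was 0.23, and 0.06 without vector tumors 3 and 5. Sytl2, an effector of Rab27a in vesicle docking, was at 51.2 to 92.8 TPM in Adamts7 tumors and at 38.8, 45.6, 8.50, 24.2 and 9.40 TPM in vector tumors, without overlap, with a log2 fold change of 1.65 (limma adjusted p = 0.114), or 0.91 without vector tumors 3 and 5. Atp7a, which supplies copper to tyrosinase, had a log2 fold change of 0.86 (0.48 without vector tumors 3 and 5), Ap3d1, an adaptor for cargo sorting, 0.46, and Bloc1s2, a subunit of organelle biogenesis complexes, -0.71 (-0.42 without these tumors; limma adjusted p = 0.126, 0.152 and 0.135). In vector tumor 3 the share kept by the 27 genes ranged from 3.14% to 173%. Named after their values were seen, the lowest were Rab38, which carries cargo to the melanosome, at 3.14%, Gpnmb, a relative of Pmel, at 4.59%, Mlph at 15.3% and Rab27a at 20.6%. Other genes of the melanosome in the same list kept more: Myo5a 57.6%, Mreg 64.2%, Rab32 72.1%, Mfsd12 95.4% and Tpcn2 173%. Over 16 lysosomal genes the median log2 fold change was 0.00, and -0.01 without vector tumors 3 and 5, with 8 positive and 0 called. The protease genes Ctsl and Ctsd had values of -0.48 and 0.61, the hexosaminidase gene Hexa 0.25 and the proton pump subunit gene Atp6v0a1 0.80; without these tumors Ctsd stood at 0.27 and Atp6v0a1 at 0.13.

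Of 11 tested genes reported as MITF targets outside melanin synthesis, 7 had positive log2 fold changes and 4 negative ones, and 0 were called (limma); the median was 0.35, and 0.24 without vector tumors 3 and 5. The value of 0.24 is that of Cdk2, whose counts are uncertain because its exons overlap those of Pmel. Ppargc1a, a regulator of mitochondrial genes, was at 11.9 to 24.0 TPM in Adamts7 tumors and at 9.51, 19.4, 0.63, 6.82 and 1.66 TPM in vector tumors, a log2 fold change of 1.60 (limma adjusted p = 0.192), or 0.60 without vector tumors 3 and 5. Tbc1d16 had a log2 fold change of 1.09 (0.46 without these tumors), the syntaxin gene Stx7 0.35 and the acid ceramidase gene Asah1 -0.57 (-0.22 without these tumors). Of the genes that switch between black and yellow pigment, 4 were tested with a median of 0.01 and 0 called, and the median was -0.10 without these tumors. Pomc, the precursor of melanocortin, was at 3.79 to 5.93 TPM in Adamts7 tumors, against 2.33 to 5.74 TPM in vector tumors, and Mgrn1, Ctns and Atrn had log2 fold changes of -0.13, 0.08 and -0.06.

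Several lists of markers of other cells or cell states were high where the 10 genes were low, in vector tumors 3 and 5. The summed level of 13 T cell markers was 26.9 to 61.5 TPM in Adamts7 tumors, 620 and 461 TPM in vector tumors 3 and 5, and 61.6 to 93.4 TPM in the other 3 vector tumors; the log2 fold change was below 0 for all 13 (median -1.71), and 0 were called. For 15 tested genes induced by interferon-gamma the sums over the list were 363 to 680, 5267 and 4819, and 1186 to 2130 TPM in the same order, with 15 negative. The groups did not overlap in 14 of the 15, against 4.89% of all genes tested. Of the 15, 4 fell in Adamts7 tumors: the GTPase genes Tgtp1 (log2 fold change -2.66), Iigp1 (-2.44), Gbp4 (-3.13) and Irgm1 (-1.69). Their limma adjusted p-values lay between 0.027 and 0.0481. Without vector tumors 3 and 5 these log2 fold changes were -2.23, -1.88, -2.30 and -1.22 in the same order, and Tgtp1 no longer passed (limma adjusted p = 0.0541). The sums of 10 macrophage markers were 568 to 2369, 6172 and 6500, and 1031 to 1549 TPM. The whole list of 13 markers of dedifferentiated melanoma cells summed to 420 to 1628, 3936 and 3592, and 431 to 1021 TPM. Its median log2 fold change was -0.21 over the 12 tested, 9 negative and 3 positive, among them Tnc at 1.18. As a mean of log2(TPM + 1), less weighted to abundant genes, this list stood at 3.04 to 4.34, 4.66 and 4.70, and 3.24 to 3.64. Fibroblast, endothelial and Schwann cell markers had medians of -0.30, -0.16 and -0.35 with 0 called, and reference genes used by most cells had a median of 0.21 and summed to 13903 to 16944 TPM in Adamts7 tumors, 8105 and 8089 TPM in vector tumors 3 and 5, and 13897 to 15939 TPM in the others. Keratinocyte markers, which would show skin in the sample, summed to at most 0.45 TPM in Adamts7 tumors and 5.05 TPM in vector tumors. Skeletal muscle markers summed to 395 TPM in vector tumor 4 and to at most 6.48 TPM in the other tumors, and adipocyte markers to 171 TPM in vector tumor 4, against at most 20.7 TPM in Adamts7 tumors. Without vector tumors 3 and 5 the median log2 fold change was -0.77 for T cell markers, -1.52 for interferon-gamma genes, 0.04 for macrophage, 0.17 for dedifferentiation, 0.19 for fibroblast, -0.12 for endothelial and -0.12 for Schwann cell markers and -0.01 for reference genes. With all tumors it was -2.25 for interferon-gamma genes and -0.71 for macrophage markers. The part of other cells or cell states in the pigment gene levels was not tested.

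The share of each gene in the summed level was compared without a test. Of the summed TPM of the 10 genes, Pmel took 27.8% to 37.1% in Adamts7 tumors, against 14.0% to 26.2% in vector tumors, and Mlana 1.25% to 1.55% in Adamts7 tumors, against 1.80% to 8.54% in vector tumors, so the groups did not overlap in these 2 shares, by a narrow margin for Mlana. Shares of the same sum depend on each other, so the shares of Pmel and Mlana are not separate results. The 8.54% of Mlana is that of vector tumor 3, where Mlana was at 3.08 TPM. Tyrp1 took 13.9% to 21.7% in Adamts7 tumors, against 19.9% to 39.2% in vector tumors, and the shares of the other 7 genes also overlapped. Slc24a5 took 33.1% of the sum in vector tumor 3, where its place in the order of levels was the first.

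**Figure D4:**
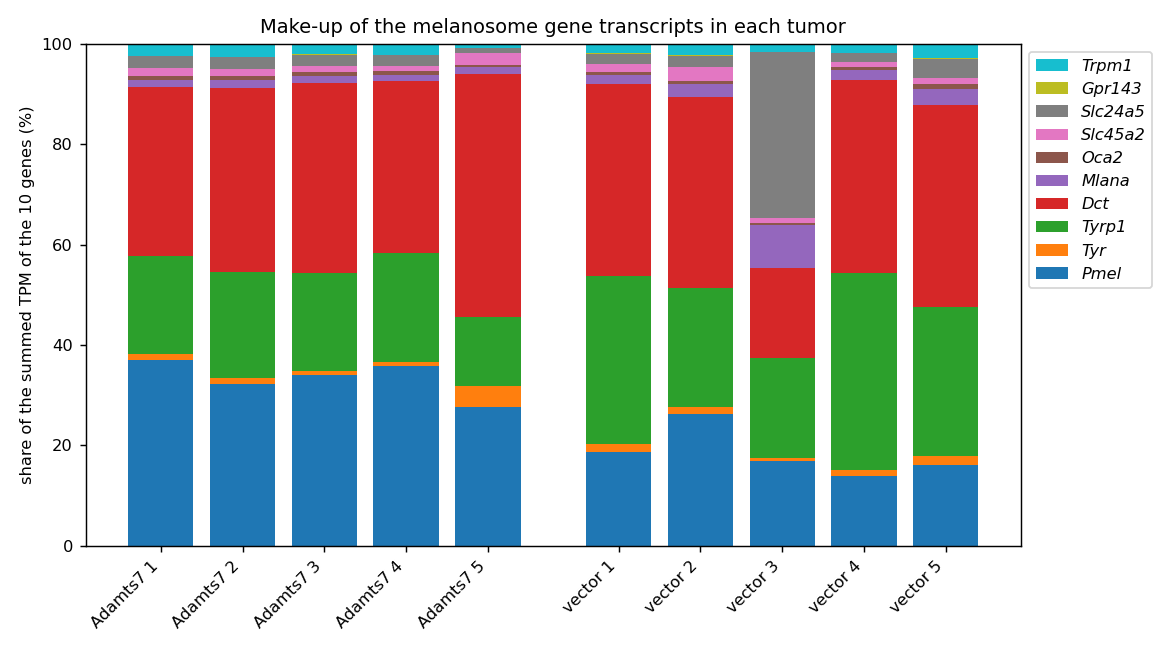
Share of each gene in the summed TPM of the 10 genes, in percent, with the 5 Adamts7 tumors left and the 5 vector tumors right. The lowest, blue part of each bar is Pmel, at 27.8% or more in Adamts7 tumors and at most 26.2% in vector tumors, and the grey part of vector tumor 3 is Slc24a5 at 33.1%.

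The balance between genes was compared within each tumor. Of the 45 pairs of the 10 genes, the difference of log2(TPM + 1) did not overlap between the groups in 6, or 13.3%; 5 of these involved Pmel, which has 9 pairs. Pmel against each other gene tested did not overlap for 22.7% of genes, and Dct, the first gene of the other pair, for 11.9%. The ratio of Pmel to Tyrp1 was 1.90, 1.51, 1.75, 1.65 and 2.00 in Adamts7 tumors and 0.556, 1.11, 0.856, 0.357 and 0.540 in vector tumors. The log2 difference of Pmel and Tyrp1 was 0.81 ± 0.16 in Adamts7 tumors and -0.65 ± 0.64 in vector tumors (SD, n = 5 each), 1.46 apart, and 1.54 apart without vector tumors 3 and 5. An exact two-sided permutation test gave p = 0.00794, the smallest that 5 against 5 allows, and 0.0595 after Benjamini-Hochberg adjustment over the 45 pairs, which missed the threshold. The same p-values held for Pmel with Mlana, Slc24a5, Gpr143 and Trpm1 and for Dct with Mlana, whose differences between the groups were 2.04, 1.91, 2.51, 1.26 and 1.35 in that order by the exact permutation test. Without vector tumors 3 and 5 these 5 were 1.40, 0.83, 1.43, 0.89 and 0.58. Without vector tumor 2 the adjusted p was 0.0397 for all 6 pairs (exact permutation test), and without each other single tumor it lay between 0.051 and 0.223. Without the tumor labelled Adamts7 5 the groups did not overlap in 13 pairs, while single genes without overlap also became more frequent, at 14.0% of all genes tested against 4.89%. The pairs were examined after the data were seen.

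**Figure D5:**
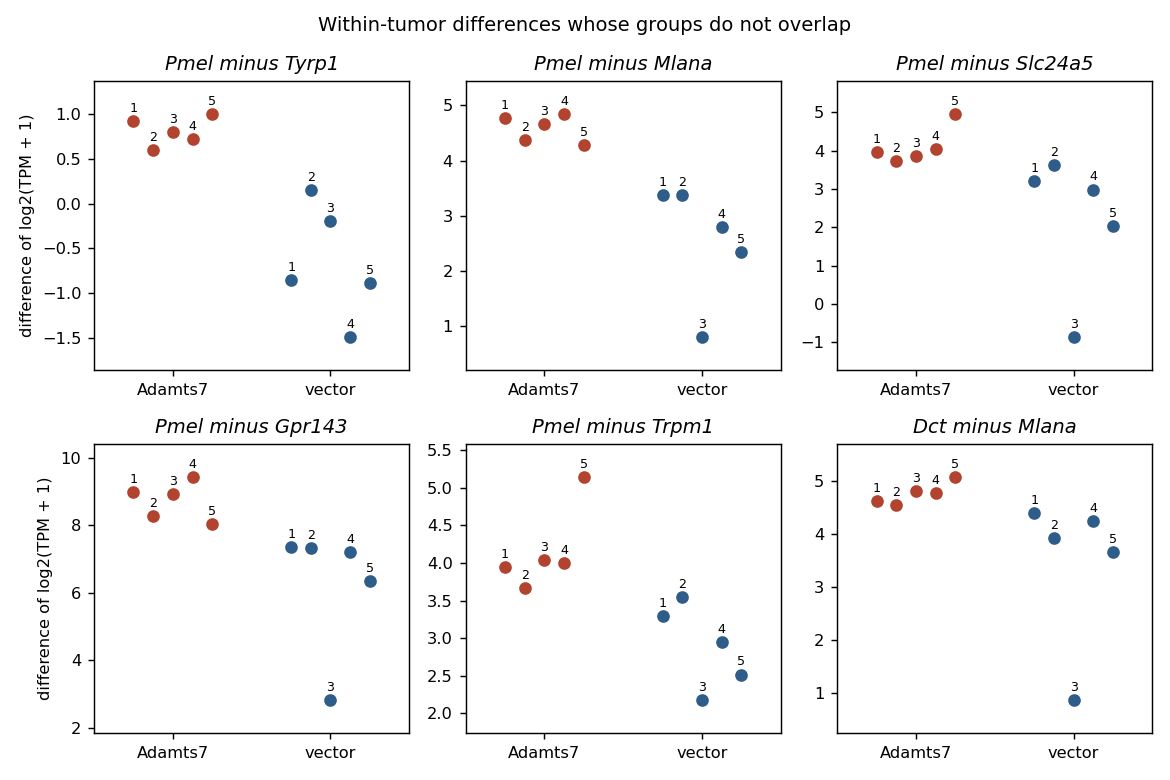
Difference of log2(TPM + 1) between 2 genes within each tumor, for the 6 pairs whose groups do not overlap, with Adamts7 tumors left (red), vector tumors right (blue) and numbers naming the tumors. For Pmel minus Tyrp1 every Adamts7 tumor lies above every vector tumor, with means of 0.81 and -0.65.

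The tumor labelled Adamts7 5 had another balance of these genes than Adamts7 tumors 1 to 4. Relative to their mean it held 22.3% of Trpm1, 25.3% of Slc24a5, 32.7% of Oca2, 44.5% of Tyrp1 and 52.0% of Pmel, but 258% of Tyr and 127% of Slc45a2, with Dct at 89.6% and Gpr143 at 96.8%. It was the lowest of its group in 6 of the 10 genes and above the group median in Tyr and Slc45a2. Mitf stood at 109% there, and Sox10 at 69.2%. Leaving this tumor out changed no sign among the 10 log2 fold changes, and the median was then 2.35.

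The genes whose profile over the 10 tumors was most like the mean profile of the set were found by the root mean square difference of centred log2(TPM + 1) values. The 8 nearest genes outside the list were Tspan10, Cited1, Gsta1, Slc6a17, Dnai1, Syt4, Gdf15 and Mc1r, the melanocortin receptor that stimulates pigment synthesis. Tspan10 (0.31) lay closer to the mean than any of the 10 genes themselves, of which Oca2 (0.34) was the nearest and Gpr143 (1.03) the farthest, in place 38 of 15276. Cited1, a transcriptional coactivator, lay at 0.42. Tspan10, a tetraspanin, was at 198, 159, 174, 226 and 99.6 TPM in Adamts7 tumors and at 106, 184, 0.50, 51.9 and 12.8 TPM in vector tumors. Mc1r was at 93.8, 92.0, 132, 165 and 35.2 TPM in Adamts7 tumors and at 126, 101, 1.29, 81.0 and 14.7 TPM in vector tumors. None of the 8 was called (limma adjusted p = 0.236 for Tspan10 to 0.416 for Gdf15).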

How the data were processed

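The expression values are log2(TPM + 1) per gene symbol, deposited by the authors, with RSEM and mm39 listed by the submitters' processing notes; turned back to TPM, they sum to between 995286 and 998019 per tumor. Per the labels' protocols, libraries were made from poly(A) RNA with spike-ins and molecular identifiers and read as pairs of 150 bases; the sources used here do not state how identifiers or strand were handled in counting. The authors' deposited comparison table, with DESeq2 named in the submitters' processing notes, holds per gene the mean signal, the log2 fold change, its standard error, a test score, and raw and adjusted p-values. Identifiers there were paired with symbols by a name table, 28805 of 30040.

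Groups follow the titles. Nothing says more than tumor about the source of a replicate, so p-values measure the spread between these tumors. Genes averaging 1 TPM or more entered a limma fit (version 3.58.1, R 4.3.3) of log2(TPM + 1) (pseudocount 1, trended variance, group alone, Benjamini-Hochberg over all genes, threshold 0.05). Fold changes on this scale understate changes of low genes. Python 3.11.15 and pandas 2.3.3 did the rest, with exact permutation over 252 arrangements for gene pairs. The fit was tested on simulated data. The genes and lists were chosen with earlier results of these data known. Named were all 10 genes, up to 4 per other list by smallest p and the 8 nearest in profile; Mitf, Sox10 and the genes given by percent kept were added for their role or after their values were seen. Alternatives were other pseudocounts, filters, scalings, variance models, weights, a block and left-out tumors. The search for the extended MITF site was made with the 7 bases TCATGTG.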

Additional observations from a re-analysis of the deposited data

Results flagged for a closer look

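In groups of 5, a tumor was marked when its gap to the nearest other tumor was too large a part of the range of its group by Dixon's test at the 95% level; chance marks about 1 in 20 groups. The tumor labelled Adamts7 5 was marked low in Slc24a5 (0.745 of the range, at 110 TPM), in Trpm1 (0.771, at 95.9 TPM) and in Adamts7 itself (0.848, at 18.2 TPM). Within that tumor the log2 difference was marked high for Pmel minus Slc24a5 (0.729 of the range, at 4.94 against 3.72 to 4.05 in Adamts7 tumors 1 to 4) and for Pmel minus Trpm1 (0.751, at 5.14 against 3.67 to 4.03). Vector tumor 3 was marked low for Pmel minus Gpr143 (0.782, at 2.83 against 6.36 to 7.34 in the other vector tumors), where Gpr143 is listed at 0, and for Dct minus Mlana (0.789, at 0.88 against 3.66 to 4.40).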

How the results depend on the processing

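Across 19 planned settings all 190 log2 fold changes of the 10 genes stayed positive and none passed an adjusted p of 0.05 in limma, the smallest being 0.128 for Pmel with weights per tumor. Another 20 fold changes were computed with vector tumors 3 and 5 left out, an alternative added later with the data known. Of these, 4 turned negative: Tyrp1 (-0.221), Mlana (-0.0832) and Gpr143 (-0.120), and Gpr143 again (-0.112) on further leaving out the tumor labelled Adamts7 5; the smallest limma adjusted p was then 0.0732, for Pmel. The 34 genes called in all became 10 with no filter on low values, 1219 with weights per tumor, 33 without vector tumors 3 and 5 and 914 without all 3 tumors. Leaving out single tumors gave 6 to 657, with 657 without the tumor labelled Adamts7 5, 17, 7, 6 and 6 without Adamts7 tumors 1 to 4, and 10, 6 and 6 without vector tumors 3, 4 and 5. Members whose groups do not overlap numbered 0 to 3 when single tumors were left out (2 without the tumor labelled Adamts7 5, where 14.0% of all genes did not overlap, and 3 without vector tumor 2, where 7.74% did not) and 2 without the 3 tumors, where 22.2% of all genes did not. Pairs of genes without overlap numbered 13 without the tumor labelled Adamts7 5 and 21 without the 3 tumors, against 6. No share over other gene pairs is given for these 2 settings, in which single genes without overlap were also more frequent. With the replicate number as a block 0 genes were called. Same-numbered tumors deviated from their group means with correlations from -0.28 to 0.26, which cannot settle whether the numbers pair the tumors. All 6 pair differences without overlap had an exact permutation adjusted p of 0.0397 without vector tumor 2, and up to 0.223 without other single tumors. The cause of these changes was not tested. TPM gives no depth, which limits statements on values under 1 TPM.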
